A study of Mus musculus with 2 samples.

Results

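Resting follicular B cells are the recirculating, IgM- and IgD-bearing mature B lymphocytes that are not dividing and have not turned into antibody-secreting cells. They were picked here from single-cell libraries of CD45+ lung leukocytes by their unique molecular identifiers (UMIs, counts of captured mRNA molecules) for a set of gate genes. A barcode with at least 500 UMIs and under 20% mitochondrial UMIs was taken when it held at least 2 UMIs of the B cell receptor signalling chains Cd79a and Cd79b and at least 1 UMI of Fcer2a, the low-affinity IgE receptor CD23. It also had to hold no UMI of the T cell genes Cd3d, Cd3e, Cd3g or Trac, of the complement receptor gene Cr2, of the immature-stage gene Vpreb3 or of the division genes Mki67 and Top2a, and at most 2 UMIs of Mzb1 and Derl3. The rule found 881 cells among 20364 barcodes of both libraries.

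The mice were C57 animals whose lungs carried metastases of B16F10, a mouse melanoma line. The tumour cells carried the IRF7-C435A mutant in 1 library and wild-type IRF7 in the other, so cells are described here as coming with C435A tumours or with WT tumours, which always means a single library. IRF7 is a transcription factor that switches on type I interferon genes, and the study's title asks how its S-nitrosylation by NOS1 in melanoma bears on anti-tumour immunity. In both groups the sorted cells were live leukocytes (CD45+, 7-AAD-) from the tumour-bearing lung, and the labels place the mutation in the melanoma line. The cell type field of the labels reads melanoma cell, whereas the sorted cells described here carried B cell markers. Neither the labels nor the other sources used here say how old the mice were, of which sex, or how many went into a library. With 1 library per group, no difference between C435A and WT tumours could be tested. Intervals given with such differences are 95% intervals that cover counting error only.

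Follicular B cells circulate between blood, lymphoid follicles and tissues, guided by chemokine receptors such as CCR7 and CXCR5. They carry a pre-made antigen receptor, survive on the cytokine BAFF, and present antigen to T cells on MHC class II. In the lung they are mostly found in the blood within vessels and in lymphoid aggregates, and on antigen contact they can become activated, enter germinal centres or turn into plasma cells.

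The library with C435A tumours held 385 such cells and the library with WT tumours 496. They made up 3.73% of 10313 kept barcodes with C435A tumours (exact 95% interval 3.38% to 4.12%) and 4.93% of 10051 with WT tumours (4.52% to 5.38%). The difference was -1.20 percentage points (-1.76 to -0.643). All B cells were 22.6% of barcodes with C435A tumours and 27.9% with WT tumours. Within the B cells the follicular share was 16.5% (15.0% to 18.1%) with C435A tumours and 17.7% (16.3% to 19.1%) with WT tumours, so it differed by -1.17 points with an interval from -3.22 to 0.905. Both shares depended on how the cells were chosen. With every barcode thinned to 1000 UMIs before the gate, the share of B cells differed by -3.34 points (-5.52 to -1.13). The share of barcodes then differed by -1.72 points (-2.29 to -1.165). A further count took only follicular cells with no UMI of other-lineage markers, over the same barcodes and B cells. There the share of B cells differed by 0.956 points (0.012 to 1.94) and that of barcodes by 0.079 points (-0.164 to 0.321). Such cells were 21.6% of follicular cells from C435A tumours and 14.7% with WT tumours. Their median depth was 1952 UMIs over 973 genes with C435A tumours and 1862.5 UMIs over 932.5 genes with WT tumours. Summed over cells this gave 863538 UMIs with C435A tumours and 1109416 with WT tumours. Of all deposited barcodes 24 were present in both libraries, and no follicular cell was in both.

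The gate has a sharp edge at Fcer2a. With C435A tumours 221 of the cells (57.4%) passed on a single Fcer2a UMI, against 254 (51.2%) with WT tumours. Just outside the edge lay 430 cells from C435A tumours and 500 with WT tumours that met every other condition with no Fcer2a UMI. On the other side, 108 resting B cells with a single Cr2 UMI with C435A tumours and 146 with WT tumours were kept out, as were 136 and 219 cells from C435A and WT tumours with a single Vpreb3 UMI. At this depth 1 molecule decides the class, so the gate sorts cells by detection as well as by identity. Mzb1 was nearly absent from both libraries, and the condition on Mzb1 and Derl3 removed no cell from C435A tumours and 1 with WT tumours at its edge.

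The markers that the gate did not use were those of B cells, set here against T cells and alveolar macrophages. Levels are given as CPM, the UMIs summed over the cells of a library and scaled to the same total in each. Ebf1, the transcription factor that sets B cell identity, had 1861 CPM with C435A tumours and 1631 CPM with WT tumours. It did not mark follicular cells alone, since resting B cells with Cr2 UMIs had 1698 and 1488 CPM with C435A and WT tumours. After each cell was thinned to 1000 UMIs Ebf1 was detected in 80.9% of follicular cells from C435A tumours and 78.6% with WT tumours (96.6% and 95.4% before thinning). Among T cells of the same libraries only 0.4% held it after thinning, and the source of those UMIs was not tested. Fcmr, the IgM Fc receptor, had 1124 CPM with C435A tumours and 1170 CPM with WT tumours. Cd55, a complement-decay factor, had 489 CPM with C435A tumours and 436 CPM with WT tumours, and was found in 35.9% and 36.3% of thinned cells from C435A and WT tumours, against 2.3% and 3.3% of T cells. Ms4a1, which encodes CD20, was found in 56.5% of thinned cells from C435A tumours and 55.4% with WT tumours. Pax5, which maintains B cell commitment, was found in 31.9% of thinned cells from C435A tumours and 26.7% with WT tumours, and either gene in at most 0.5% of alveolar macrophages.

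**Figure D1:**
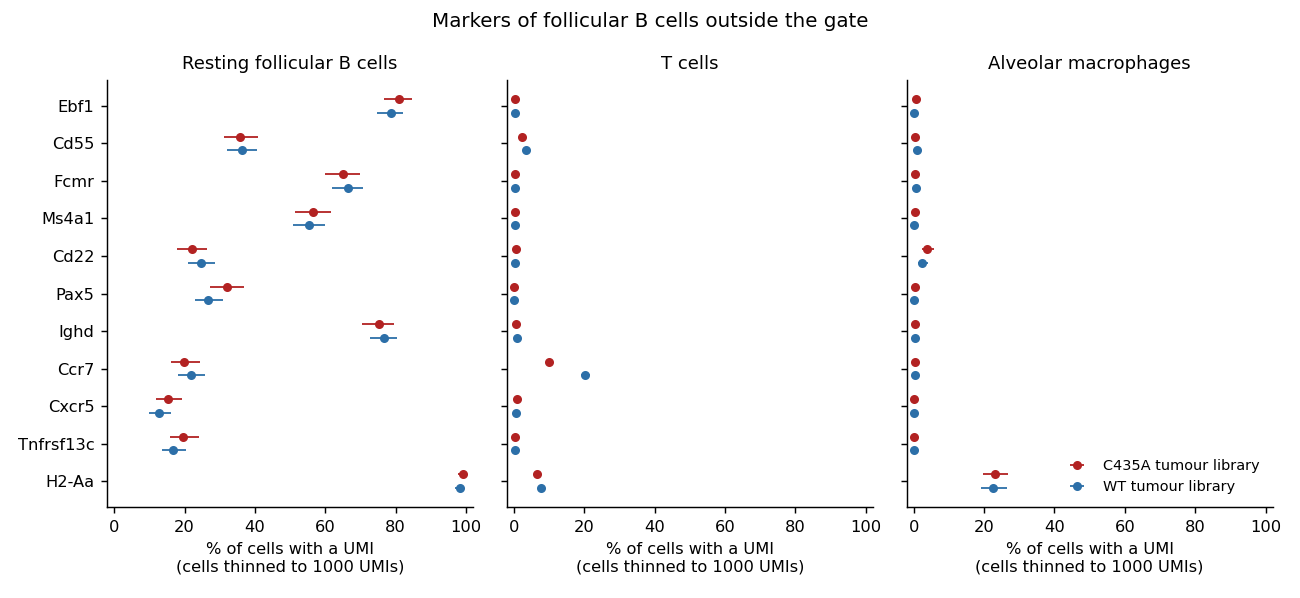
Share of cells with at least 1 UMI of 11 markers outside the gate, with every cell thinned to 1000 UMIs, in resting follicular B cells, T cells and alveolar macrophages; points are the C435A tumour library (upper, red) and the WT tumour library (lower, blue), bars are exact 95% intervals. Ebf1 stands at 80.9% and 78.6% in follicular cells from C435A and WT tumours and at 0.4% in T cells of either, whereas Ccr7 is shared with T cells.

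The antigen receptor was that of cells that had not switched isotype. Ighd, the IgD heavy chain, had 1444 CPM with C435A tumours and 1421 CPM with WT tumours, and Ighm, the IgM heavy chain, had 3881 CPM with C435A tumours and 3798 CPM with WT tumours. Both chains were detected together in 88.6% of cells from C435A tumours and 92.1% with WT tumours. Constant regions of IgM and IgD held most of the heavy-chain UMIs in 381 of 385 cells from C435A tumours and 490 of 496 with WT tumours. Switched isotypes held most in 4 cells (1.04%) with C435A tumours and 3 cells (0.605%) with WT tumours. In light chains, kappa led in 89.4% of cells from C435A tumours and 88.1% with WT tumours, and lambda in 9.87% and 11.3% of cells from C435A and WT tumours. Kappa-led cells had a median of 26 Igkc UMIs and 6 lambda constant UMIs in both libraries. Lambda-led cells had 2 Igkc and 23.5 lambda UMIs with C435A tumours, and 7 and 21.5 with WT tumours. The cells were classed by these same counts, so the lead of 1 chain is set by the classing. Rag1, Rag2, Dntt, Vpreb1 and Igll1, which rearrange or precede the receptor in the bone marrow, were at 0 UMIs in all follicular cells of both libraries.

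Between the tumours, most genes of the follicular cells lay close together. A gene was counted as measured when it had at least 50 UMIs over both libraries, and as higher or lower when its CPM differed by at least 1.5-fold. Of 5015 measured genes, 145 (2.89%) were higher in cells from C435A tumours and 316 (6.3%) were lower, together 9.19%. The interquartile range of the log2 ratios ran from -0.22 to 0.19, with a median of -0.00. None of the 16 measured B cell identity factors passed 1.5-fold in either direction, and their log2 ratios ran from -0.17 to 0.51 with a median of 0.17. Mef2c and Foxp1, 2 transcription factors of B cell development, had log2 ratios of 0.21 and 0.22. Pou2af1, the coactivator OBF1 needed for the germinal centre response, had 312 CPM with C435A tumours and 219 CPM with WT tumours, which is the highest ratio of the 16 at 0.51 (0.25 to 0.76).

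Genes of receptor signalling were as close. None of 20 measured members, among them Cd37, Ms4a1, Bank1, Syk and Lyn, passed 1.5-fold, and the median log2 ratio was 0.14. Inhibitory receptors and phosphatases likewise had none of 8, with a median of -0.06. Ptpn6, the phosphatase SHP-1 that dampens the receptor, had 352 CPM with C435A tumours and 467 CPM with WT tumours, a log2 ratio of -0.41 (-0.62 to -0.20). Fcgr2b, the inhibitory IgG receptor, had 66 UMIs with C435A tumours and 121 with WT tumours, a ratio of -0.51 (-0.97 to -0.07). Survival genes had none of 15 past 1.5-fold. Tnfrsf13c, the BAFF receptor, had 183 CPM with C435A tumours and 195 CPM with WT tumours. Bcl2, an inhibitor of cell death, had 164 CPM with C435A tumours and 160 CPM with WT tumours.

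Most homing genes stood level, and 2 of 15 measured members were lower and 0 higher, against 6.3% and 2.89% of all measured genes. Ccr7, which guides lymphocytes into lymph nodes, had 212 CPM with C435A tumours and 240 CPM with WT tumours, and Cxcr5, the receptor for the follicle chemokine, had 139 CPM with C435A tumours and 124 CPM with WT tumours. Among adhesion genes, the integrin chains Itga4 and Itgb7 and the ligand Icam2 had log2 ratios of 0.06, 0.08 and 0.06, and Itgb1 had -0.19 (-0.77 to 0.38). Cd44, the hyaluronan receptor that increases on activated lymphocytes, had 71 UMIs with C435A tumours and 162 with WT tumours, a log2 ratio of -0.83 (-1.25 to -0.42). Itgb2, the integrin beta chain shared with myeloid cells, had a ratio of -0.62. In the 335 and 421 cells from C435A and WT tumours with under 5 UMIs of other-lineage markers, the Cd44 ratio was -0.35 and that of Itgb2 was 0.32.

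Activation genes were detected in most cells, at low counts. After thinning, 77.2% of cells from C435A tumours and 68.0% with WT tumours held at least 1 UMI of the activation list, and 8.90% and 6.92% of cells from C435A and WT tumours held at least 5. Of 12 measured activation genes 0 were higher and 1 was lower, with a median log2 ratio of 0.17. Cd69, an early activation antigen that retains lymphocytes in tissue, had 394 CPM with C435A tumours and 293 CPM with WT tumours, a log2 ratio of 0.43 (0.20 to 0.65). It was detected in 29.1% of thinned cells from C435A tumours and 20.2% with WT tumours (43.4% and 36.1% before thinning), against 16.06% and 18.001% of thinned T cells from C435A and WT tumours. Cd83, a surface marker of activated B cells and dendritic cells, had 248 CPM with C435A tumours and 233 CPM with WT tumours. It was detected in 16.8% of thinned cells from C435A tumours and 16.1% with WT tumours (29.4% and 26.6% before thinning), against 1.05% and 0.792% of T cells. Myc and the receptor-induced Nr4a1 and Egr1 had 52, 67 and 72 UMIs in all cells from C435A tumours and 81, 72 and 74 in those with WT tumours. Bhlhe40, a stress- and activation-responsive repressor, had 36 UMIs with C435A tumours and 76 with WT tumours (ratio -0.72). Cd86, a costimulatory ligand, had 23 UMIs with C435A tumours and 49 with WT tumours (ratio -0.73, -1.51 to 0.01). Germinal centre genes other than Bcl6 held 11 or fewer UMIs each in either library. Bcl6 itself, the master factor of that state, had 19 UMIs with C435A tumours and 46 with WT tumours.

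The type I interferon list did not move as a group. Of its 52 genes, 25 were measured, 1 was higher and 1 lower, with a median log2 ratio of -0.02. Summed over the list the cells held 3787 CPM with C435A tumours and 3786 CPM with WT tumours. Ifi27l2a, an interferon-induced mitochondrial protein, was the most abundant member, with 516 CPM with C435A tumours and 717 CPM with WT tumours (ratio -0.47, -0.64 to -0.30). Ly6a, the surface antigen Sca-1, went the other way with 530 CPM with C435A tumours and 394 CPM with WT tumours (ratio 0.43, 0.24 to 0.62). Slfn5, a Schlafen family gene, had a ratio of 0.62 and Xaf1, a pro-apoptotic interferon target, a ratio of -0.92. The classical antiviral genes were scarce. Ifit1, Ifit3, Mx1, Rsad2 and Oas2 held 4, 14, 12, 5 and 11 UMIs in all cells from C435A tumours and 10, 21, 5, 5 and 7 in those with WT tumours. Irf7 of the B cells themselves had 17 UMIs with C435A tumours and 32 with WT tumours, too few for a measured ratio. Of 8 measured genes of the interferon gamma list none passed 1.5-fold.

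Antigen presentation by class II was alike in both tumours. Cd74, the invariant chain, had 14683 CPM with C435A tumours and 15458 CPM with WT tumours. H2-Aa, a class II alpha chain, had 6485 CPM with C435A tumours and 5927 CPM with WT tumours, and H2-Ab1, its partner beta chain, had 4483 CPM with C435A tumours and 4593 CPM with WT tumours. None of 12 measured class II genes passed 1.5-fold, and the list summed to a median of 35 UMIs per thinned cell from C435A tumours and 37 with WT tumours.

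Class I heavy chains, which display peptides from inside the cell to CD8 T cells, did differ, and not all alike. H2-Q7, a non-classical heavy chain, had 669 UMIs and 775 CPM in cells from C435A tumours against 495 UMIs and 446 CPM in those with WT tumours, a log2 ratio of 0.80 (0.63 to 0.97). H2-K1, a classical heavy chain, had 3070 UMIs and 3555 CPM with C435A tumours against 2652 UMIs and 2390 CPM with WT tumours, a ratio of 0.57 (0.50 to 0.65) that falls just short of 1.5-fold. H2-D1, the other classical chain of these mice, had 1641 UMIs and 1900 CPM with C435A tumours against 2055 UMIs and 1852 CPM with WT tumours, a ratio of 0.04 (-0.06 to 0.13). H2-Q7 was found in 52.6% of thinned cells from C435A tumours and 36.3% with WT tumours (73.2% and 56.2% before thinning). H2-Q4 and H2-T22, both non-classical, had ratios of 0.88 and 0.72. H2-Q6 had a ratio of 0.51 (0.22 to 0.80), and since H2-Q6 and H2-Q7 are near-identical copies their counts may be split between them. B2m, the light chain of every class I molecule, had 2289 CPM with C435A tumours and 2152 CPM with WT tumours (ratio 0.09), and H2-T23 had a ratio of -0.18. Of the 15 measured genes of the class I list, which also holds peptide transporters and immunoproteasome subunits, 2 were higher and 0 lower. Over all measured genes 2.89% were higher and 6.3% lower.

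H2-K1 (chr17:33996017-34000347, minus strand), H2-D1 (chr17:35262730-35267499, plus strand) and H2-Q7 (chr17:35439155-35443773, plus strand) are protein-coding genes of the MHC on GRCm38. Their promoters are shown because the 3 heavy chains differed in their ratios although they are close relatives. Each sequence runs 5′ to 3′ on the gene's strand from 250 bases before to 50 bases after the annotated start, from RefSeq on GRCm38.p6. The positions are chr17:34000298-34000597 for H2-K1 (minus strand), chr17:35438905-35439204 for H2-Q7 (plus strand) and chr17:35262844-35263143 for H2-D1 (plus strand). Capitals mark 2 runs of letters searched on both strands. GGGGATT is the first part of the class I kappa B element, which NF-kappa B factors bind, and AGTGAAA, here read on the other strand as TTTCACT, is a core of sites for interferon regulatory factors. The runs do not overlap.
H2-K1: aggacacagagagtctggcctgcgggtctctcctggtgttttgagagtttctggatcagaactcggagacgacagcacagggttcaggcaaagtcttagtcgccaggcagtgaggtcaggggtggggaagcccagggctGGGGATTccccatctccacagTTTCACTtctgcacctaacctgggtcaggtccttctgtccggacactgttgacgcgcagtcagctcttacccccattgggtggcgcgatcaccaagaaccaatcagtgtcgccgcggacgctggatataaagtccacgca
H2-Q7: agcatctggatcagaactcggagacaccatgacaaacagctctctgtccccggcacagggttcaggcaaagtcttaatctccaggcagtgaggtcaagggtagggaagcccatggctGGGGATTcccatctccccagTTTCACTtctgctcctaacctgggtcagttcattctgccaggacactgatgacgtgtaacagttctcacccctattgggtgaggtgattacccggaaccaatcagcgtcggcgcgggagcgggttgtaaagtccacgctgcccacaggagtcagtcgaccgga
H2-D1: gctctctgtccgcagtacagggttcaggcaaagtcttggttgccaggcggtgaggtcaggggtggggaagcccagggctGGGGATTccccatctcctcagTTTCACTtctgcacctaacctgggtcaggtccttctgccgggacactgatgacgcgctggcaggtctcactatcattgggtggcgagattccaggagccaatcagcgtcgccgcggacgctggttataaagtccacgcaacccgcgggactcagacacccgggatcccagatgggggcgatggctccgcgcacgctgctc
All 3 hold both runs in the same order. The kappa B run starts at position -111 in H2-K1, -133 in H2-Q7 and -171 in H2-D1, and the interferon run at -90, -113 and -150, counted from each gene's annotated start. An unmarked run of the CCAAT element, CCAATCA, starts at 8, -16 and -53 in the same order of genes. The positions thus shift with the annotated starts and are not distances from a measured start of transcription. The H2-D1 window also lies inside the gene span given above. The promoters of all RefSeq genes in that table, 32851 in number, held the kappa B run in 1020 cases (3.10%) and the interferon run in 1419 cases (4.32%). H2-Q6, H2-Q4 and H2-T22 also held both. H2-T23 and B2m held neither of these exact runs. Other forms of kappa B and interferon sites were not searched for, so their absence is not shown. The H2-D1 promoter, whose gene stood level, carried the same 2 runs as those of H2-K1 and H2-Q7. Whether either run is bound or active in these cells was not tested.

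The class I pattern was seen in the other resting B cells as well. For H2-K1, cells with Cr2 UMIs had a log2 ratio of 0.31 (0.23 to 0.40), cells with Vpreb3 UMIs 0.41 (0.36 to 0.47), and resting B cells with no UMI of Fcer2a, Cr2 or Vpreb3 0.35 (0.28 to 0.42). For H2-Q7 those gates had 0.60, 0.77 and 0.78, and for H2-D1 -0.00, 0.06 and -0.03. Outside the B cells, H2-K1 was level in T cells at 0.01 and higher in NK cells at 0.50, monocytes at 0.84 and neutrophils at 1.09. H2-Q7 had positive ratios in every gated cell type, among them T cells at 0.41 and neutrophils at 2.05. For both genes the ratio of follicular cells thus lay above that of T cells and below that of neutrophils, as point values without a test.

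**Figure D2:**
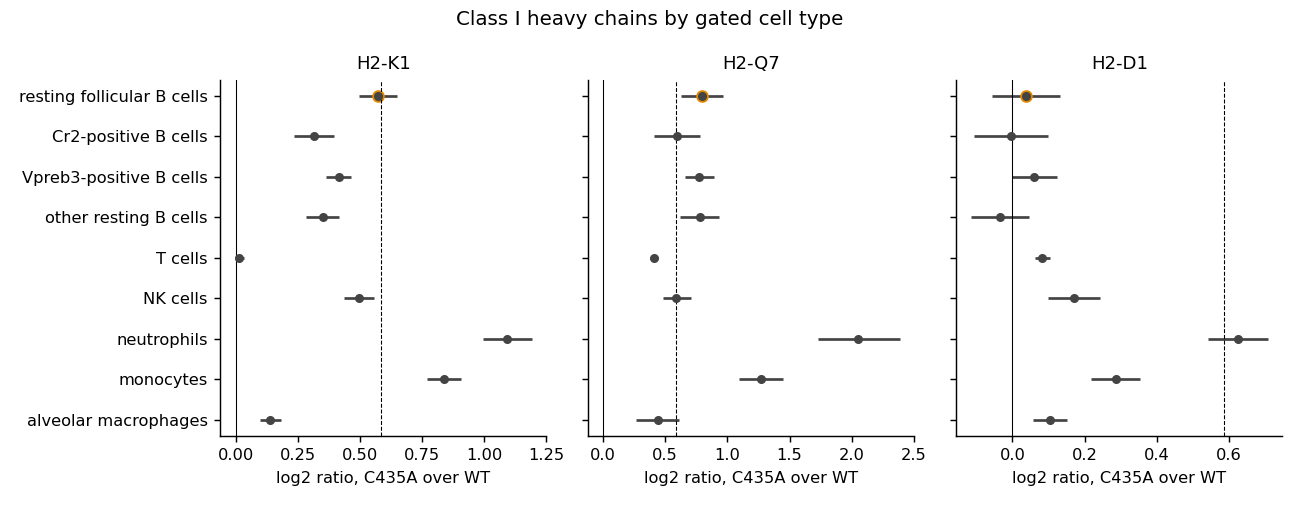
Log2 ratio of CPM, C435A tumour library over WT tumour library, for H2-K1, H2-Q7 and H2-D1 in 9 gated cell types; points are ratios of summed UMIs, bars are exact 95% intervals for counting error only, the solid line marks 0 and the dashed line 1.5-fold. Follicular B cells (top, ringed in orange) stand at 0.57, 0.80 and 0.04, and the other B cell gates keep the same order of the 3 genes.

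Heat shock genes, which encode chaperones, had a median below that of all genes. It was -0.29 on the log2 scale over 12 measured members, against -0.00 over all genes, and only 1 passed 1.5-fold. An interval wholly below 0 was found for 7 of the 12, compared with 346 (6.90%) of all measured genes, and intervals are narrower for abundant genes. Hspa8, the constitutive HSP70, had 478 CPM with C435A tumours and 691 CPM with WT tumours (ratio -0.53, -0.71 to -0.36). Hspa1b, the inducible HSP70, had 293 CPM with C435A tumours and 431 CPM with WT tumours (ratio -0.56, -0.78 to -0.33). Hspa1a, its near-identical copy with which counts may be split, had 397 CPM with C435A tumours and 432 CPM with WT tumours (ratio -0.12, -0.32 to 0.08). Hsp90ab1 and Hsp90aa1, the HSP90 chains, had ratios of -0.24 and -0.34, and Hsph1, a co-chaperone, had -0.96. The difference was spread over cells. After thinning, 42.9% of cells from C435A tumours and 58.2% with WT tumours held at least 5 heat shock UMIs, with medians of 4 and 5. Hspa8 had ratios of -0.59, -0.58 and -0.74 in the cells with Cr2 UMIs, with Vpreb3 UMIs and with neither, and -0.28 in T cells. In the same order of cells Hspa1b had -0.94, -0.43, -0.08 and -1.62, and Hspa1a had -0.82, -0.48, -0.72 and -1.62, so for both inducible genes the T cells lay farther below 0 than the follicular cells. Immediate early genes had a median of -0.05 over 14 members, with 0 higher and 1 lower (Dusp1, a phosphatase, at -0.77). Dusp1 stood at -0.17 with doublets removed and at -0.09 in cells with under 5 other-lineage UMIs, and 19.9% of its WT UMIs were in 1 cell.

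Quiescence genes stood level. None of 14 measured members passed 1.5-fold. Over all measured genes, beside which the list counts below stand, 2.89% were higher and 6.3% lower. Btg1, an antiproliferative factor, had 2307 CPM with C435A tumours and 2371 CPM with WT tumours. Klf2, which maintains resting lymphocytes and their exit receptors, had 594 CPM with C435A tumours and 717 CPM with WT tumours (ratio -0.27, -0.44 to -0.11). Glycolysis genes had 2 lower of 10 measured, Tpi1 at -0.95 and Pgam1 at -0.70 (-0.25 and -0.22 in cells with under 5 other-lineage UMIs), and Gapdh had 417 CPM with C435A tumours and 576 CPM with WT tumours (ratio -0.47). Among cytokine receptors 3 of 14 were lower, namely Ifngr2 at -0.97, Tnfrsf1b at -0.82 and Tgfbr1 at -0.64. In cells with under 5 other-lineage UMIs Ifngr2 stood at -0.88, Tnfrsf1b at 0.56 and Tgfbr1 at -0.12. Tnfrsf1b was at 0.51 after thinning. Tgfbr1 was at 0.59 in cells with no other-lineage UMI, a value that may rest on few UMIs. Of 10 measured immunoglobulin constant genes 1 was lower, Igha, at -0.70. Of the 11 measured plasma cell genes 2 were lower, Creld2 at -1.19 and Edem1 at -0.62 (-0.41 and 0.13 in cells with under 5 other-lineage UMIs). Toll-like receptor genes had none of 6 past 1.5-fold. Plac8, a gene high in marginal zone B cells and monocytes, had 1216 CPM with C435A tumours and 876 CPM with WT tumours (ratio 0.47).

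A list of genes that mark memory and age-associated B cells had 5 of 7 measured members lower, against 316 (6.3%) of all 5015 measured genes. Vim, the filament protein vimentin, had 259 UMIs with C435A tumours and 640 with WT tumours (ratio -0.94). S100a6, a calcium-binding protein, had 129 UMIs with C435A tumours and 438 with WT tumours (ratio -1.40). Cd9, a tetraspanin, had a ratio of -1.39, S100a4 -0.95 and Ahnak -0.64. Vim, S100a4, S100a6, Cd9 and Ahnak are also abundant in macrophages and neutrophils. The defining genes of the list were scarce, with 7 Tbx21 and 6 Itgax UMIs with C435A tumours and 4 and 14 with WT tumours. In cells with under 5 other-lineage UMIs the ratios were -0.46 for Vim, -1.60 for S100a6, -0.90 for Cd9, -1.18 for S100a4 and -0.26 for Ahnak. In the 164 and 242 cells from C435A and WT tumours with at least 2 Fcer2a UMIs, they were -0.86 for Vim, 0.06 for S100a6, -2.38 for Cd9, -0.98 for S100a4 and -0.43 for Ahnak.

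**Figure D3:**
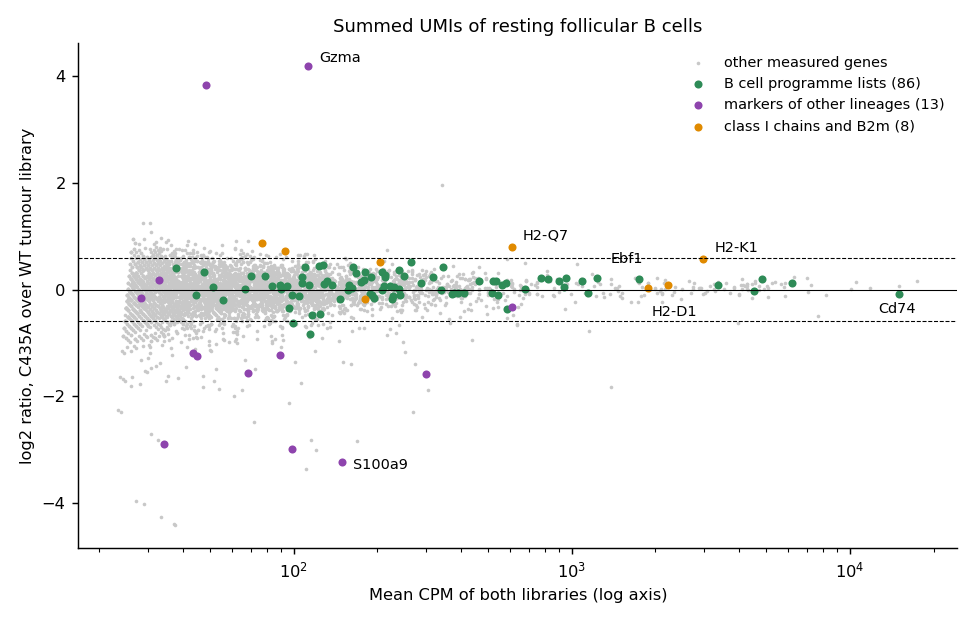
Log2 ratio of CPM, C435A over WT tumour library, against mean CPM (log axis) for 5015 measured genes of resting follicular B cells; green points are 86 genes of the B cell lists, orange points 8 class I genes, purple points 13 markers of other lineages, and dashed lines mark 1.5-fold. B cell genes gather around 0, class I chains H2-Q7 and H2-K1 lie above, and the points farthest from 0, such as Gzma at 4.19 and S100a9 at -3.22, are markers of other cell types.

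The genes farthest apart between the libraries were not B cell genes. Highest with C435A tumours were Gzma and Nkg7, cytotoxic granule genes of NK and T cells, and Ccl5, a chemokine of the same cells. Gzma had 185 UMIs with C435A tumours and 13 with WT tumours (ratio 4.19), of which 66 were in 1 cell. Nkg7 had 78 UMIs with C435A tumours and 7 with WT tumours. Ccl5 had 467 UMIs with C435A tumours and 155 with WT tumours (ratio 1.95), with 169 in 1 cell from C435A tumours and 114 in 1 cell from WT tumours. Lowest were transcripts of macrophages, neutrophils and melanoma. Spp1, osteopontin, had 17 UMIs with C435A tumours and 224 with WT tumours (ratio -3.36), and S100a9, a neutrophil calcium-binding protein, had 25 UMIs with C435A tumours and 300 with WT tumours (ratio -3.22). Mt2, a metallothionein, had 0 UMIs with C435A tumours and 74 with WT tumours, of which 66 lay in 1 cell. Mmp12, a macrophage elastase, had 0 UMIs with C435A tumours and 60 with WT tumours, of which 50 lay in 1 cell. For Mt2 and Mmp12 the exact intervals reached up to log2 ratios of -3.93 and -3.62. Without the top cell of each gene, and with 0 set to a floor of 3 UMIs per library, the ratios were -1.05 and -1.38. S100a8, Mt1, Fabp5, Ccl6 and Lgals3 had ratios from -3.01 to -2.29, and Il1b, Marco and Arg1 had 1, 1 and 2 UMIs with C435A tumours and 82, 81 and 62 with WT tumours.

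Low counts of these transcripts were present in most follicular cells, and a few cells held many. Over 55 marker genes of T, NK, myeloid, dendritic, red and melanoma cells, the follicular cells held 1317 UMIs with C435A tumours and 2823 with WT tumours. Any such UMI was present in 302 cells (78.4%) with C435A tumours and 423 (85.3%) with WT tumours, but at least 50 were present in only 5 and 11 cells from C435A and WT tumours. Those cells held 28.4% of all other-lineage UMIs with C435A tumours and 55.6% with WT tumours, with median depths of 4703 and 9818 UMIs. The leading list differed as well. NK markers had 321 UMIs with C435A tumours and 28 with WT tumours, alveolar macrophage markers 222 with C435A tumours and 842 with WT tumours, and neutrophil markers 57 with C435A tumours and 600 with WT tumours. T cell markers had 33 UMIs with C435A tumours and 41 with WT tumours, a low count that the gate sets in part, since 4 of the 8 (Cd3d, Cd3e, Cd3g and Trac) were required to be at 0. Xcr1 of type 1 dendritic cells and Alas2 of red cells were at 0 in both. Gzma was found in 5.5% of thinned follicular cells from C435A tumours and 1.4% with WT tumours, against 32.8% and 7.1% of T cells. Lyz2, the macrophage lysozyme, was found in 19.4% of thinned follicular cells from C435A tumours and 45.6% with WT tumours (35.6% and 65.7% before thinning), against 21.6% and 40.2% of T cells. The Lyz2 share of follicular cells was thus near that of T cells with C435A tumours and somewhat above it with WT tumours. Whether these UMIs came from free RNA, mixed droplets or expression was not tested.

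**Figure D4:**
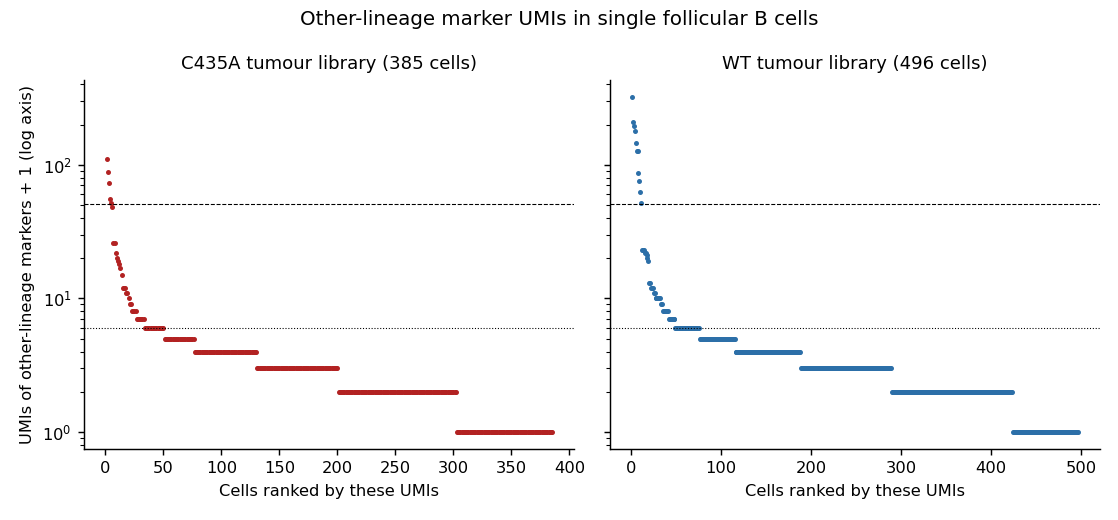
UMIs of 55 other-lineage markers plus 1 (log axis) in every resting follicular B cell, ranked from high to low, with C435A tumours (left) and the WT tumour library (right); the dotted line marks 5 UMIs and the dashed line 50 UMIs. At least 50 UMIs were present in 5 cells on the left and 11 on the right, and most cells had fewer than 5.

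Leaving out every cell with at least 5 other-lineage UMIs kept 335 cells from C435A tumours and 421 with WT tumours. In these, 141 genes were higher and 153 lower, against 145 and 316 in all follicular cells. H2-Q7 had a log2 ratio of 0.80, H2-K1 0.56 and Zfas1, a small nucleolar RNA host gene, 0.76. Spp1 was still at -3.19 and Ccl5 at 1.70, with 9 and 88 UMIs with C435A tumours and 97 and 32 with WT tumours. No other-lineage UMI at all was present in 83 and 73 cells from C435A and WT tumours. In these, the ratios of Hsph1, Slfn5, Tgfbr1, Bcl6, S100a4, Ahnak, Tpi1 and Pgam1 changed sign or stood at 0. Only 762 genes were measured in these cells, against 5015 in all follicular cells. S100a4 and Tgfbr1 shared the value 0.589, and Bcl6 and Lgals3 the value 0.004. Such ratios may rest on few UMIs, so they are not read as reversals. Of the 316 lower genes in all cells, 37 (11.7%) stood at no more than 5% of the level of the highest other cell type. The same held for 4 (2.76%) of the 145 higher genes and for 1.06% of all measured genes.

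Among the other genes of the highest and lowest set, 2 were small nucleolar RNA host genes that are commonly counted as long non-coding RNAs. Zfas1 had 234 UMIs with C435A tumours and 180 with WT tumours (ratio 0.74). Gas5 had 689 UMIs with C435A tumours and 627 with WT tumours (ratio 0.50). The remaining genes on the higher side were 2410006H16Rik at 0.57, Igbp1, which encodes a phosphatase regulatory subunit, at 0.90, and Rpgrip1, a ciliary gene, at 0.91.

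The second question the libraries allow is how follicular cells differ from the B cells that the gate sets aside, and this one has 2 libraries on each side. UMIs were summed over 4 gates of resting B cells in each library (follicular, Cr2-positive with 278 and 359 cells from C435A and WT tumours, Vpreb3-positive with 773 and 1085, and other resting with 430 and 500), which gave 8 sums. The sums were compared with edgeR's quasi-likelihood test with the library as a term, over 9901 genes, with the gate genes left out of tests and totals. Such p-values measure only how far the differences between gates disagree between these 2 libraries, with a spread estimate shared by all 4 gates. The 4 gates of a library also share its handling.

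Against Cr2-positive cells, 0.0202% of genes were at least 1.5-fold higher and 0.0505% at least 1.5-fold lower at a Benjamini-Hochberg adjusted p under 0.05, which is 2 and 5 genes. Without the fold limit 10 genes passed, and 742 genes had an unadjusted p under 0.05. Tsc22d3, the glucocorticoid-induced leucine zipper, was higher in follicular cells, with 610 and 561 CPM of UMIs outside the gate genes in follicular cells from C435A and WT tumours against 352 and 439 CPM in Cr2-positive cells. Its log2 fold change was 0.57 (SE 0.11, edgeR adjusted p = 0.0484). Tsc22d3 levels of the 2 gates did not overlap, but the gene was picked by this test on the same values, so this adds no support. Iglc2, a lambda constant region, had 2184 and 2172 CPM against 1607 and 1764 CPM (0.37, edgeR adjusted p = 0.0484), and Junb, an AP-1 component, had a fold change of 0.49 (edgeR adjusted p = 0.0288). Lyz2 was lower in follicular cells (-0.90, edgeR adjusted p = 0.0226). In cells of 1500 to 4000 UMIs it stood at 0.07 (edgeR adjusted p = 0.953). Median depth was 2412 and 2100 UMIs in Cr2-positive cells from C435A and WT tumours, above that of follicular cells. Further genes past 1.5-fold were singled out after their values were seen. Hspb1, a small heat shock protein, had 25 and 30 UMIs in follicular cells from C435A and WT tumours against 0 and 1 in Cr2-positive cells. Its follicular UMIs lay in 6 and 9 cells from C435A and WT tumours, with 56% and 26.7% of them in a single cell. Cd5l, Saa3, Alox15 and F13a1, genes of macrophages or of the acute phase, had at most 4 UMIs in a follicular sum.

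Cd55 and Ccr7, a resting and a homing marker, had fold changes of 0.46 and 0.51 over Cr2-positive cells that did not pass (edgeR adjusted p = 0.182 for either). H2-K1 and H2-Q7 did not pass between these gates (0.08 and 0.06). Of the 46 interferon genes tested none passed, and of 12 class II genes none passed.

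Against Vpreb3-positive cells 0.0101% of genes were higher and 0.162% lower, which is 1 and 16 genes. Without the fold limit 22 genes passed, and 738 genes had an unadjusted p under 0.05. The gene past 1.5-fold was again Hspb1, with the same few follicular cells behind it and 10 and 28 UMIs in Vpreb3-positive cells. Ms4a4c, a gene of the CD20 family, had 370 and 344 CPM in follicular cells against 269 and 217 CPM in Vpreb3-positive cells from C435A and WT tumours (log2 fold change 0.56, edgeR adjusted p = 0.0314), and Man1a, a Golgi mannosidase, had a fold change of 0.52 (edgeR adjusted p = 0.0462). Chchd10, a mitochondrial protein, was lower, with 210 and 210 CPM in follicular cells against 322 and 348 CPM in Vpreb3-positive cells (-0.68, edgeR adjusted p = 0.0102). Ms4a1 was lower as well, with 952 and 854 CPM against 1187 and 1158 CPM (-0.39, edgeR adjusted p = 0.0484). Ly6d, a lymphoid surface antigen, had -0.34 (edgeR adjusted p = 0.0278) and Pafah1b3, an enzyme of lipid metabolism, -0.85 (edgeR adjusted p = 0.0278). Fcmr, by contrast, did not pass at 0.49 (edgeR adjusted p = 0.0541), nor did Ighd at 0.35 (edgeR adjusted p = 0.158).

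**Figure D5:**
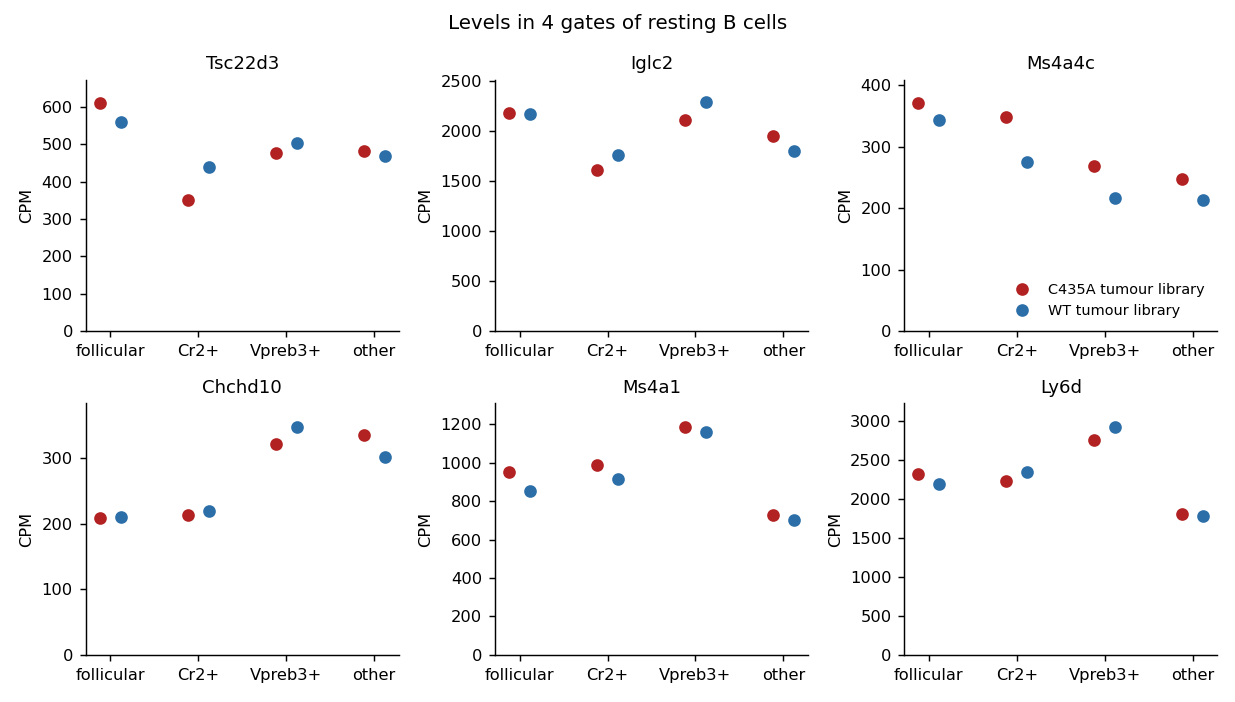
CPM of UMIs outside the gate genes, per library, for 6 genes in the 4 gates of resting B cells (each panel starts at 0); red points are the C435A tumour library and blue points the WT tumour library, 1 value each. Tsc22d3 stands at 610 and 561 CPM in follicular cells, above the Cr2-positive cells, and Chchd10 stands at 210 and 210 CPM, level with Cr2-positive cells and below the Vpreb3-positive and other gates.

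The largest fold changes against Vpreb3-positive cells came from antibody genes and rested on few cells. Jchain, the joining chain of secreted IgM and IgA, had 71 and 83 UMIs in follicular cells from C435A and WT tumours against 5702 and 3392 in Vpreb3-positive cells (-4.57, edgeR adjusted p = 3.41e-08). Of these, 5551 and 3184 UMIs lay in 9 and 6 cells with at least 20 Jchain UMIs each. No follicular cell and no Cr2-positive cell reached 20. Igha, Ighg2c, Ighg3, Igkc and Xbp1, which belong to the same secretory state, had fold changes of -4.51, -4.20, -6.01, -1.27 and -1.34. Without the Jchain-rich cells and those with at least 5 other-lineage UMIs the values were -0.26, 0.09, -0.16, -0.01 and -0.26, and the calls were lost. Spp1 (-1.08) and Cd9 (-1.02), which are macrophage and tetraspanin genes, also lost their call there.

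Ms4a4c, Chchd10, Ms4a1, Ly6d, Tsc22d3 and Iglc2 kept their call in that subset, in cells of 1500 to 4000 UMIs and with DESeq2. Junb, Man1a and Pafah1b3 did not pass in cells of 1500 to 4000 UMIs (edgeR adjusted p = 0.121, 0.0745 and 0.235). Against the other resting B cells, which share the absence of Cr2 and Vpreb3 UMIs and differ by Fcer2a, 118 genes (1.19%) were higher and 539 (5.44%) lower in follicular cells. In cells of 1500 to 4000 UMIs these counts were 9 and 44, and without Jchain-rich and mixed cells 10 and 26. In that contrast over all cells, 7 of 13 memory and age-associated genes, 7 of 14 plasma cell genes and 6 of 14 glycolysis genes were lower in follicular cells and none higher, while 3 of 8 Fc and complement receptor genes were higher. Markers of other lineages were lower too, with 5 of 5 for melanoma, 5 of 5 for monocytes and 4 of 4 for dendritic cells. For alveolar macrophages it was 5 of 6, for C1q macrophages 4 of 5, for neutrophils 3 of 6 and for NK cells 0 of 6. The Jchain-rich cells numbered 9 and 4 in the other resting gate with C435A and WT tumours. Cells with at least 5 other-lineage UMIs numbered 100 and 132 there, against 50 and 75 in the follicular gate. The part of either kind of cell in the lower list members was not tested gene by gene.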

How the data were processed

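Single-cell RNA-seq libraries of CD45+ lung leukocytes were analysed, 1 from mice with IRF7-C435A melanoma and 1 from mice with WT melanoma. The authors deposited raw UMI counts per gene and barcode for each library, made with Cell Ranger 7.2.0 per the file headers on GRCm38 per the submitters' processing notes. Capture is labelled as BD Rhapsody as well as 10x 3' V3, so the platform is uncertain. A second text table per library was not used here. Libraries held 59615672 UMIs in 10373 barcodes (C435A tumour) and 54934397 in 10156 (WT tumour), and the filter of 500 UMIs and 20% mitochondrial UMIs removed 60 and 105. Scrublet (scanpy 1.11.5) marked 851 and 808 barcodes, 7 and 11 of them follicular, which were kept and left out as an alternative.

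Counts were summed per library and cell class, scaled to CPM of the class total, and compared as log2 ratios with exact conditional 95% intervals (scipy 1.17.1). PCR duplicates are removed by UMIs, but free RNA and mixed droplets are not covered. Genes with under 50 UMIs over both libraries got no ratio, and 3 UMIs per library was the floor for a count of 0. Detection was compared after thinning to 1000 UMIs. Sums of 4 B cell gates per library were tested with edgeR 4.0.16 (quasi-likelihood, TMM, library as a term, Benjamini-Hochberg adjustment), with DESeq2 1.42.0 as an alternative (R 4.3.3). Interval coverage and test recovery were checked on simulated data.

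The members and the gene lists were chosen with earlier results of these data known. Named genes were the 12 highest and 12 lowest ratios by the interval bound nearest 0 among genes of at least 50 CPM in 1 library, list members by summed CPM or past 1.5-fold, and, in gate contrasts, up to 10 per direction with adjusted p under 0.05 and a mean of at least 50 CPM. Aldoa had no unique match. Some genes that these rules pick are not reported here. Alternatives were other scalings, gene and cell filters, thinning, doublet removal and a stricter Fcer2a gate. Chosen after seeing the data were leaving out cells with at least 5 other-lineage UMIs, leaving out the top cell of each gene, and gate contrasts without cells of at least 20 Jchain or 5 other-lineage UMIs.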

Additional observations from a re-analysis of the deposited data

Results flagged for a closer look

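Picked out here are 9 genes whose ratios of C435A over WT tumour libraries had opposite signs in follicular cells and in T cells or another B cell gate. Each ratio was past 1.5-fold, with the 2 intervals on opposite sides of 0. Other genes had opposite intervals at smaller ratios, such as Vim at -0.94 in follicular cells and 0.56 in T cells. In each case the difference was not tested. Set against T cells, S100a6 had a log2 ratio of -1.40 in follicular cells and 2.20 in T cells, S100a4 had -0.95 in follicular cells and 1.77 in T cells, Ahnak had -0.64 in follicular cells and 0.96 in T cells, and Bhlhe40 had -0.72 in follicular cells and 0.90 in T cells. Set against Vpreb3-positive B cells, Igha had -0.70 in follicular cells and 1.02 in Vpreb3-positive cells, and Arg1 had -4.59 in follicular cells and 2.32 in Vpreb3-positive cells. Set against other resting B cells, Igha had -0.70 in follicular cells and 0.81 in the others, Creld2 -1.19 and 0.67, Dusp1 -0.77 and 0.79, and S100a9 -3.22 and 0.62. Jchain-rich cells numbered 9 and 6 in the Vpreb3-positive gate with C435A and WT tumours, and 9 and 4 in the other resting gate. Without them and cells with at least 5 other-lineage UMIs, the Igha fold change over Vpreb3-positive cells went from -4.51 to -0.26. The Igha ratios of those 2 gates may thus rest on few cells. In follicular cells with under 5 other-lineage UMIs Creld2 stood at -0.41, Dusp1 at -0.09 and S100a9 at -1.57, and with doublets removed Dusp1 stood at -0.17 and S100a9 at -1.41. S100a6 stood at 0.06 in follicular cells with at least 2 Fcer2a UMIs, and Ahnak at -0.26 in those with under 5 other-lineage UMIs. The Arg1 value rests on 2 UMIs with C435A tumours and 62 with WT tumours, of which 53 were in 1 cell. No group had the 4 samples that a check for single outlying samples needs.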

How the results depend on the processing

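No paired analysis was possible because each group has 1 library. The C435A over WT comparison was repeated under each alternative for 57 genes and 25 lists. Counted once per gene and alternative, 519 ratios stayed within the interval of the main ratio and 83 fell outside it. A further 14, all of genes past 1.5-fold in the main comparison, changed sign. For other genes the sign was not checked, and H2-D1 went from 0.04 to -0.01 with at least 2 Fcer2a UMIs. Counted once per list and alternative, 264 medians held and 11 moved. The count of higher genes (145) was 57 in cells with no other-lineage UMI, and 1251, 523 and 9 with gene filters of 1, 20 and 200 UMIs. The count of lower genes (316) was 29 with no other-lineage UMI, 153 under 5 such UMIs, 126 after thinning, and 1621, 873 and 47 with those filters. With only follicular cells without other-lineage UMIs counted, over all kept barcodes, their share differed by 0.079 points. Over all B cells it differed by 0.956 points (0.012 to 1.94). The share of B cells differed by -3.34 points (-5.52 to -1.13) when every barcode was thinned first. With no other-lineage UMI, Lgals3 stood at 0.004, Hsph1 at 0.40, Slfn5 at -0.048, Tgfbr1 at 0.59, Bcl6 at 0.004, Ahnak at 0.10, S100a4 at 0.59, Tpi1 at 0.049 and Pgam1 at 0.17. Under 5 such UMIs, Itgb2 stood at 0.32, Tnfrsf1b at 0.56 and Edem1 at 0.13. Tnfrsf1b was 0.51 after thinning, and S100a6 was 0.056 with at least 2 Fcer2a UMIs. The cause of these shifts was not tested. Only 762 genes were measured in cells with no other-lineage UMI, so sign changes there may rest on few UMIs. Across all alternatives H2-K1 ran from 0.36 to 0.64, H2-Q7 from 0.60 to 0.80 and H2-D1 from -0.01 to 0.07. In the gate contrasts, the counts past 1.5-fold over Cr2-positive cells (2 higher, 5 lower) were 16 and 19 with a filter of 10 UMIs and 24 and 20 without Jchain-rich and mixed cells, and the lower count was 0 with DESeq2 and in cells of 1500 to 4000 UMIs. Over Vpreb3-positive cells (1 higher, 16 lower) they were 0 and 4 with DESeq2, 5 and 46 with the filter of 10, 4 and 6 in the depth window, and 7 higher without those cells. Over other resting cells (118 higher, 539 lower) they were 30 and 157 with DESeq2, 9 and 44 in the window, and 10 and 26 without those cells. DESeq2 gave no adjusted p for 9405, 9214 and 3072 genes. Values that changed sign were Lyz2 over Cr2-positive cells at 0.074 in the window and 0.19 without those cells, and over Vpreb3-positive cells, in the window, Ighg3 at 0.077, Jchain at 0.10, Ighg2c at 0.24 and Igkc at 0.003, and without those cells Jchain at 0.14, Ighg2c at 0.085, Spp1 at 0.11 and Cd9 at 0.12. At median depths of 1952 and 1862.5 UMIs a cell, absence in a single cell cannot be told from a low level.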
